A study of Homo sapiens with 12 samples.

Results

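Enteroendocrine and tuft cells are rare secretory and chemosensory cell types of the intestinal epithelium, and 10 genes that mark them or direct their formation are described here across 4 stable lines of HCT116, a colorectal cancer cell line. The genes were the rows of the raw count table whose symbol was CHGA, CHGB, SCG2, SCG5, INSM1, NEUROG3, NEUROD1, POU2F3, TRPM5 or DCLK1, which are 10 of 28395 genes. RNA-seq was performed on 12 libraries, 3 from each line. EV cells were HCT116 clones that grew in geneticin after transfection with empty pcDNA3.1, and EHF cells were clones obtained in the same way with pcDNA3.1-EHF, which encodes an ETS-family transcription factor of epithelia. CDX1 cells were HCT116 cells transduced with an MSCV-IRES-GFP-CDX1 retrovirus, which encodes an intestinal homeobox factor, and were sorted for GFP and expanded. EHF+CDX1 cells were geneticin-resistant clones of CDX1 cells transfected with the EHF plasmid. The EV line therefore lacks the retrovirus and the GFP sort, and an effect of a factor cannot be told apart from a difference between clones or selections. The study describes its RNA-seq data as biological replicates, in a number that differs from that of the libraries deposited for a line, and does not say which libraries came from separate cultures, so p-values measure the spread between these libraries, which may be technical.

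Enteroendocrine cells arise from progenitors that pass through a transient pulse of NEUROG3, followed by NEUROD1 and INSM1, and mature cells store peptide hormones and granins in dense-core granules that are released on stimulation. Tuft cells depend on POU2F3, sense luminal compounds through a taste-like cascade that ends in the cation channel TRPM5, and are marked in the mouse by the kinase DCLK1. REST is a zinc finger repressor of neuronal and neuroendocrine genes, and several granin genes are among its classical targets. In bulk RNA, a rare cell with much RNA of a gene and a low level in every cell cannot be told apart.

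Total counts ranged from 13523007 in EHF+CDX1 replicate 3 to 74186741 in EHF replicate 3. Levels are given as reads and as CPM, the read count normalised to the library total and scaled by TMM factors, with 3 reads in a library, or 0.0375 to 0.207 CPM, taken as the limit that a count of 0 allows. EV replicate 3 stood apart from the other EV libraries: the chi-square of its counts per degree of freedom was 294 and 323 against them, compared with 4.18 between EV replicates 1 and 2. Over the other lines this value was 3.21 to 47.2, and results that change without EV replicate 3 are given with and without it. EHF measured 299 ± 54.4 CPM in EV, 19312 ± 305 CPM in EHF, 12.3 ± 0.603 CPM in CDX1 and 18708 ± 1433 CPM in EHF+CDX1 cells (mean ± SD, n = 3). CDX1 had at most 4 reads in any EV or EHF library, and measured 525 ± 35.8 CPM in CDX1 and 5419 ± 277 CPM in EHF+CDX1 cells. The 12 epithelial identity genes, such as EPCAM and KRT8, were all above 3 reads in every library, with a summed level of 3340 to 3987 CPM in CDX1 cells and 4947 to 6063 CPM in the other lines.

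Of the 10 genes, 5 reached 0.5 CPM in at least 3 libraries and were tested among 15853 genes: SCG2, SCG5, POU2F3, TRPM5 and DCLK1. For this filter CPM was taken on library totals without TMM factors, so it differs from the printed CPM. On that scale POU2F3 reached 0.5 CPM in 4 libraries and CHGA in 2. DCLK1 reached that level only in the 3 EHF+CDX1 libraries, so it passed through the line in which it is high. The other 5, CHGA, CHGB, INSM1, NEUROG3 and NEUROD1, were too low for that filter and are described by their reads. Per exon length SCG2 was the highest of the 5 tested genes in every line, at 16.3 ± 6.01 RPKM in EV, 4.54 ± 0.138 in EHF, 3.08 ± 1.07 in CDX1 and 3.13 ± 0.644 in EHF+CDX1 cells (SD, n = 3). More than 3 reads in every library of a line were counted for 5 of the 10 genes in EV cells (CHGB, SCG2, SCG5, POU2F3 and TRPM5), 5 in EHF cells (CHGA, SCG2, SCG5, POU2F3 and TRPM5), 6 in CDX1 cells (those of EHF cells and NEUROD1) and 4 in EHF+CDX1 cells (SCG2, SCG5, TRPM5 and DCLK1). With a limit of more than 10 reads the counts were 1, 2, 3 and 3.

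**Figure D1:**
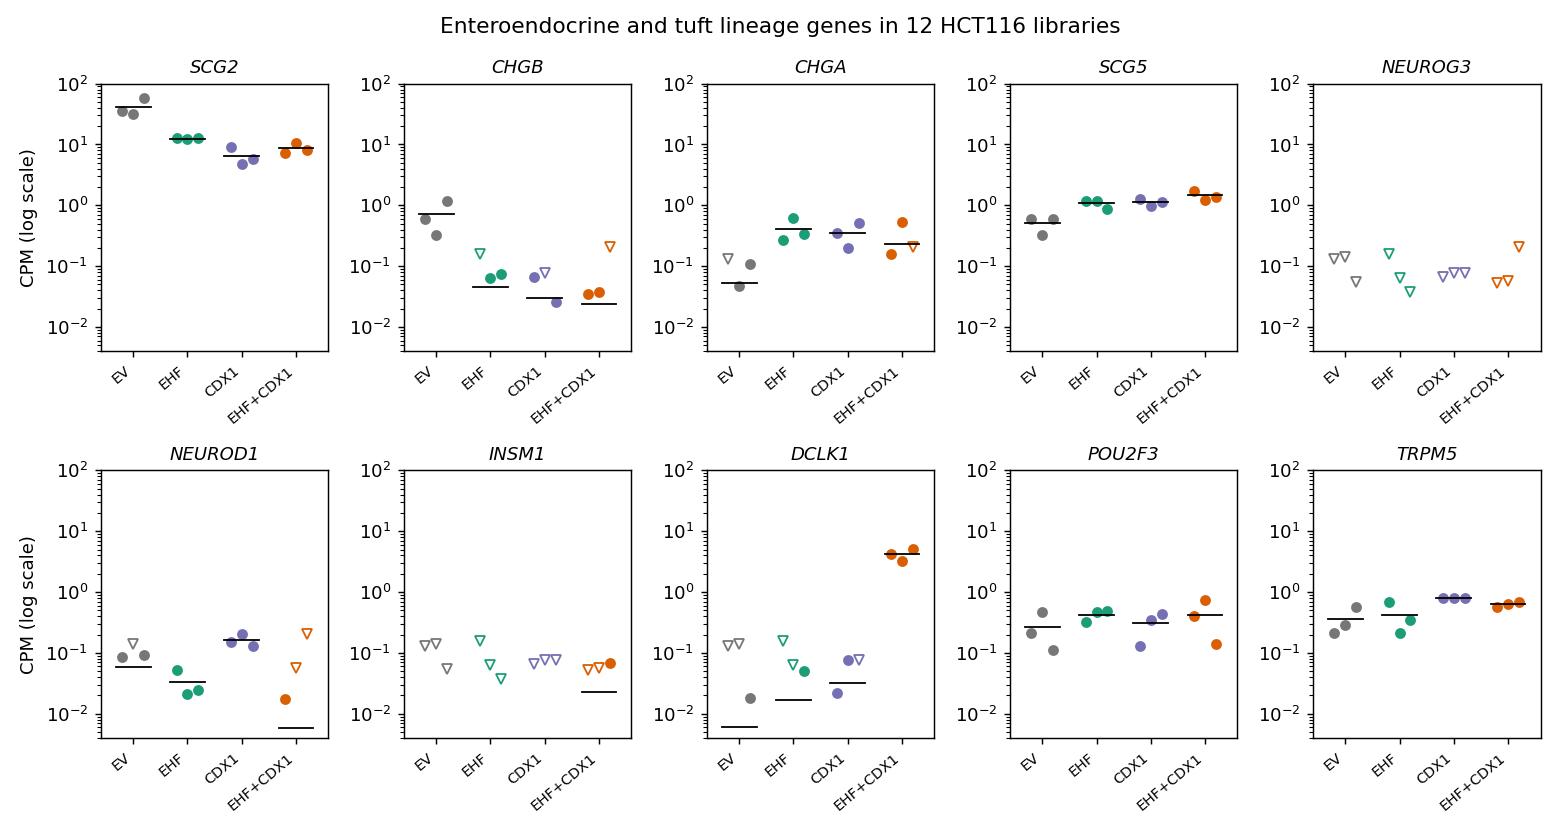
Level of each of the 10 genes in 12 libraries, in CPM on a log axis, by line. Filled circles are libraries with at least 1 read, open triangles are libraries with 0 reads drawn at their limit of 3 reads, and bars are means over 3 libraries with 0 reads entered as 0. SCG2 and CHGB are highest in EV cells and DCLK1 stands at 3.28 to 5.18 CPM in EHF+CDX1 cells alone, while NEUROG3 has no read.

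DCLK1, a microtubule-associated kinase (Entrez Gene 9201, chromosome 13, 35768652 to 36131939, GRCh38.p14), was read almost exclusively in EHF+CDX1 cells. It had 0, 0 and 1 reads in the EV libraries, 0, 0 and 4 in the EHF libraries, 1, 3 and 0 in the CDX1 libraries, and 244, 173 and 75 in the EHF+CDX1 libraries. Of its 501 reads, 492 came from EHF+CDX1 cells, and the highest library of another line had 4. The level in EHF+CDX1 cells was 4.24 ± 0.95 CPM (SD, n = 3), while the 95% exact Poisson interval of the pooled reads ended at 0.0564, 0.0699 and 0.0825 CPM in EV, EHF and CDX1 cells. Per exon length this was still a low level, 0.274 ± 0.0626 RPKM against 3.13 ± 0.644 RPKM for SCG2 in the same cells.

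DCLK1 rose in EHF+CDX1 cells against each of the 3 other lines by edgeR's quasi-likelihood test against a 1.5-fold change, in which 7.3% of all tested genes rose against EV, 2.49% against EHF and 22.3% against CDX1 cells. From pooled reads the ratio to EV cells was 391 (95% exact binomial interval 69.8 to 15456, counting error only), that to EHF cells 145 (56.2 to 533) and that to CDX1 cells 123 (47.6 to 452). The fitted log2 fold changes were 8.34 ± 0.75 (SE) against EV cells (Benjamini-Hochberg adjusted p = 1.15e-05), 7.16 ± 0.63 against EHF cells (adjusted p = 2.38e-05) and 6.9 ± 0.61 against CDX1 cells (adjusted p = 2.95e-06), and with so few reads in the lower lines they depend on the prior count of the fit. Neither factor alone gave a call, with 4 reads in EHF and 4 in CDX1 cells against 1 in EV cells. The interaction, which is the log2 fold change of EHF+CDX1 over CDX1 cells minus that of EHF over EV cells, was 5.73 ± 2.71 and was not called (adjusted p = 0.126). It was called by limma voom (6.93, adjusted p = 0.000101), by DESeq2 (5.87, adjusted p = 0.00462) and without EHF replicate 3, which holds all 4 EHF reads (8.89, adjusted p = 0.0419). The CDX1 transcript itself was about 10.3-fold higher in EHF+CDX1 than in CDX1 cells (log2 fold change 3.37 ± 0.18, adjusted p = 7.63e-08). The part of that dose in the DCLK1 difference was not tested.

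RefSeq lists 3 starts for DCLK1, and the 250 bases before the first and, up to the nearest exon, those before the third are shown because the gene went from near 0 to several CPM in the line that carries both factors. The window before the first start lies outside all 8 DCLK1 transcripts of GENCODE v44. That before the third lies 276272 bases further along the gene, inside an intron of 3 transcripts, and is shown as far as the exon of another. Both strands were searched for TTTAT, the core of CDX sites, and for CGGAAG and AGGAAG, forms of the ETS core, and matches are in capitals.
DCLK1 start 1, chr13:36131940-36132189, minus strand: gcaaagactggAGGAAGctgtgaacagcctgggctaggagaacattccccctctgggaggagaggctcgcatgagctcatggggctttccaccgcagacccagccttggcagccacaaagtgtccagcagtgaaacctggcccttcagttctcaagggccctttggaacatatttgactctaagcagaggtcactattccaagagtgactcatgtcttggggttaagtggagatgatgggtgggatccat
DCLK1 start 3, chr13:35855785-35855917, minus strand: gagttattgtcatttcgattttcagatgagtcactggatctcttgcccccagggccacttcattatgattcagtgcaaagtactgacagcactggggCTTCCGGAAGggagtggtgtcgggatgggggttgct
The first window held 1 AGGAAG, and the third held CGGAAG once on each strand, overlapping each other. The second window, which is not shown, held none of the 3 motifs. TTTAT was in none of the 3 DCLK1 windows of 250 bases. Among 35116 RefSeq promoters of that length, 28.7% held AGGAAG, 16.5% CGGAAG and 32.7% TTTAT. Gene-level counts do not tell which start was used. Of the 10 genes, 5 had promoters in the RefSeq set, and CHGB, SCG2, INSM1, POU2F3 and TRPM5 had no entry. The promoter of NEUROG3 held 1 TTTAT on the reverse strand and that of NEUROD1 held 1 AGGAAG, whereas those of CHGA and SCG5 held none of the 3 motifs.

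The other 2 tuft cell genes were present at a low level in every library and were called in no comparison by edgeR's test against a 1.5-fold change, with an unadjusted p of at least 0.0683 in each. POU2F3, the transcription factor tuft cells require (Entrez Gene 25833, chromosome 11, 120236638 to 120319945), had 5, 10 and 6 reads in EV, 6, 22 and 39 in EHF, 6, 14 and 17 in CDX1 and 23, 39 and 2 in EHF+CDX1 cells. Its mean levels of 0.266 ± 0.187, 0.423 ± 0.0907, 0.307 ± 0.158 and 0.427 ± 0.302 CPM overlapped between all lines. The fitted log2 fold change of EHF+CDX1 over EV cells was 1.01 ± 0.64 (adjusted p = 0.75). Its direction was not stable: it was -0.094 with limma voom and -0.74 on the deposited log2 RPKM, and on leaving out 1 library in edgeR ranged from 0.43 (without EHF+CDX1 replicate 2) to 1.68 (without EV replicate 2). POU2F3 overlaps the antisense gene POU2F3-AS1 and LOC105369531, and since the strand setting of the counting is not stated their reads cannot be told apart. TRPM5 (Entrez Gene 29850, chromosome 11, 2403991 to 2444514) had 5, 6 and 31 reads in EV, 13, 10 and 28 in EHF, 36, 32 and 31 in CDX1 and 33, 33 and 10 in EHF+CDX1 cells. All 3 CDX1 libraries, at 0.789 to 0.808 CPM, lay above the EV libraries, at 0.215 to 0.57 CPM. The log2 fold change of CDX1 over EV cells was 1.04 ± 0.42 and was not called (adjusted p = 0.134), but was called against no change (adjusted p = 0.044) and, against 1.5-fold, without EV replicate 3 (1.67, adjusted p = 0.022). Of the 3 tuft genes, DCLK1 alone passed the test in EHF+CDX1 cells, the line that carried it over the filter. That it differs from POU2F3 and TRPM5 was not tested.

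The enteroendocrine transcription factors were at or near the limit of detection. NEUROG3, the factor that commits progenitors to the endocrine fate (Entrez Gene 50674, chromosome 10, 69571485 to 69573422), had 0 reads in all 12 libraries, which allows up to 0.0304, 0.0205, 0.0242 and 0.0241 CPM over the 3 libraries of EV, EHF, CDX1 and EHF+CDX1 cells. INSM1, a zinc finger factor of endocrine maturation (Entrez Gene 3642, chromosome 20, 20368104 to 20370949), had a single read, in EHF+CDX1 replicate 3. No difference of either gene between the lines was detectable at this depth. NEUROD1, a basic helix-loop-helix factor downstream of NEUROG3 (Entrez Gene 4760, chromosome 2, 181668295 to 181680517), had 2, 0 and 5 reads in EV, 1, 1 and 2 in EHF, 7, 8 and 5 in CDX1 and 1, 0 and 0 in EHF+CDX1 cells. The 3 CDX1 libraries, at 0.129 to 0.202 CPM, lay above all 9 others, of which the highest was 0.0919 CPM. Pooled over a line there were 20 reads in CDX1 and 1 in EHF+CDX1 cells, a ratio of 20.1 (3.21 to 831). In a fit of the 24839 genes with at least 1 read, NEUROD1 fell in EHF+CDX1 against CDX1 cells (log2 fold change -3.92 ± 1.22, adjusted p = 0.0272), as did 12.2% of genes, but the call was not made without CDX1 replicate 2 (adjusted p = 0.0606), EHF+CDX1 replicate 2 (0.109) or EHF+CDX1 replicate 3 (0.0704). Its 20 reads against 7 in EV cells gave a ratio of 2.27 (0.924 to 6.36), with an adjusted p of 0.459 in that fit.

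The granins, acidic proteins that are packed with hormones into dense-core granules, did not move together. SCG2, secretogranin II (Entrez Gene 7857, chromosome 2, 223596940 to 223602361), measured 34.9, 31.2 and 57.7 CPM in EV, 12.6, 12.1 and 12.8 in EHF, 9.24, 4.7 and 5.81 in CDX1 and 7.35, 10.6 and 8.09 in EHF+CDX1 cells. Every EV library was above every library of the other lines, EHF libraries were above all CDX1 and EHF+CDX1 libraries, and the CDX1 and EHF+CDX1 libraries overlapped. SCG2 fell in EHF cells (log2 fold change -1.73 ± 0.27, adjusted p = 0.00422), CDX1 cells (-2.65 ± 0.28, adjusted p = 1.62e-05) and EHF+CDX1 cells (-2.25 ± 0.28, adjusted p = 0.000354) against EV cells, comparisons that share the 3 EV libraries and in which 2.65%, 23.3% and 3.13% of tested genes fell. As folds, SCG2 was 3.31, 6.27 and 4.75 times higher in EV than in EHF, CDX1 and EHF+CDX1 cells. Adding the second factor gave no further call, with -0.52 ± 0.27 for EHF+CDX1 over EHF cells (adjusted p = 1) and 0.4 ± 0.27 over CDX1 cells (adjusted p = 0.743). The interaction of 2.13 ± 0.38 was called (adjusted p = 0.00191), since the fall with both factors was smaller than the sum of the single falls on the log2 scale. Without EV replicate 3, the highest of the 12 libraries, all 4 of these calls were still made, and over every alternative run their adjusted p lay between 2.49e-12 and 0.0224.

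CHGB, chromogranin B (Entrez Gene 1114, chromosome 20, 5911510 to 5925353), was low, and highest in EV cells like SCG2. It had 14, 7 and 65 reads in EV, 0, 3 and 6 in EHF, 3, 0 and 1 in CDX1 and 2, 2 and 0 in EHF+CDX1 cells, so that 86 of its 103 reads came from EV cells and 65 from EV replicate 3. In CPM the EV libraries, at 0.331 to 1.19, did not overlap those of the other lines, of which the highest was 0.075. The ratio of pooled reads in EV cells was 14.2 (7.13 to 32) to EHF, 27 (10.2 to 101) to CDX1 and 27.1 (10.2 to 102) to EHF+CDX1 cells. In the fit of all genes with a read, CHGB fell in EHF (log2 fold change -3.61 ± 0.78, adjusted p = 0.0114), CDX1 (-4.42 ± 0.85, adjusted p = 0.000776) and EHF+CDX1 cells (-4.44 ± 0.87, adjusted p = 0.00386) against EV cells. Without EV replicate 3 the call was lost in EHF cells (-3.01, adjusted p = 0.149) and was made in the other comparisons with EV cells. In that fit 1.69% of genes fell in EHF, 15.3% in CDX1 and 2.04% in EHF+CDX1 cells against EV cells.

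CHGA and SCG5 had their lowest mean levels in EV cells. CHGA, chromogranin A and the general marker of endocrine cells (Entrez Gene 1113, chromosome 14, 92922664 to 92935285), had 0, 1 and 6 reads in EV, 5, 30 and 27 in EHF, 16, 8 and 20 in CDX1 and 9, 28 and 0 in EHF+CDX1 cells. All EHF and CDX1 libraries, at 0.202 to 0.63 CPM, lay above the EV libraries, at 0 to 0.11 CPM, while those of EHF+CDX1 cells ran from 0 to 0.531 CPM. Pooled reads gave ratios to EV cells of 5.97 (2.73 to 15.5) in EHF, 5 (2.24 to 13.2) in CDX1 and 4.2 (1.85 to 11.2) in EHF+CDX1 cells, intervals of counting error that leave out the spread between libraries. With that spread in the fit, CHGA was called in none of them (adjusted p = 0.16, 0.0772 and 0.381). It was called in EHF (4.06, adjusted p = 0.00851) and CDX1 cells (3.79, adjusted p = 0.00594) without EV replicate 3, which holds 6 of the 7 EV reads. Its interaction of -3.03 ± 1.16 was not called (adjusted p = 0.0821), but was without EV replicate 3 (-4.42, adjusted p = 0.00385) or EHF+CDX1 replicate 2 (-4.24, adjusted p = 0.0182).

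SCG5, the 7B2 chaperone of the prohormone convertase PCSK2 (Entrez Gene 6447, chromosome 15, 32641710 to 32697092), measured 0.603, 0.331 and 0.606 CPM in EV, 1.17, 1.2 and 0.862 in EHF, 1.29, 0.985 and 1.13 in CDX1 and 1.75, 1.23 and 1.38 in EHF+CDX1 cells. Each library of the 3 other lines was above every EV library, and EHF+CDX1 libraries were above the EHF libraries and overlapped the CDX1 libraries. SCG5 rose in CDX1 (log2 fold change 1.1 ± 0.29, adjusted p = 0.0376) and EHF+CDX1 cells (1.47 ± 0.29, adjusted p = 0.0198) against EV cells, and the value for EHF cells, 1.01 ± 0.3, was not called (adjusted p = 0.232). Both calls were made on few reads, 7 to 33 per EV library, and both were lost with limma voom (adjusted p = 0.149 and 0.419), DESeq2 (0.275 and 0.106) and without EV replicate 2 (0.119 and 0.0627). The call in EHF+CDX1 cells was also lost without EHF+CDX1 replicate 1 (adjusted p = 0.104), and that in CDX1 cells without CDX1 replicate 1 (0.09) or replicate 3 (0.0558). SCG5 lies in the readthrough gene ARHGAP11A-SCG5 and overlaps SCG5-AS1, so its reads are uncertain.

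**Figure D2:**
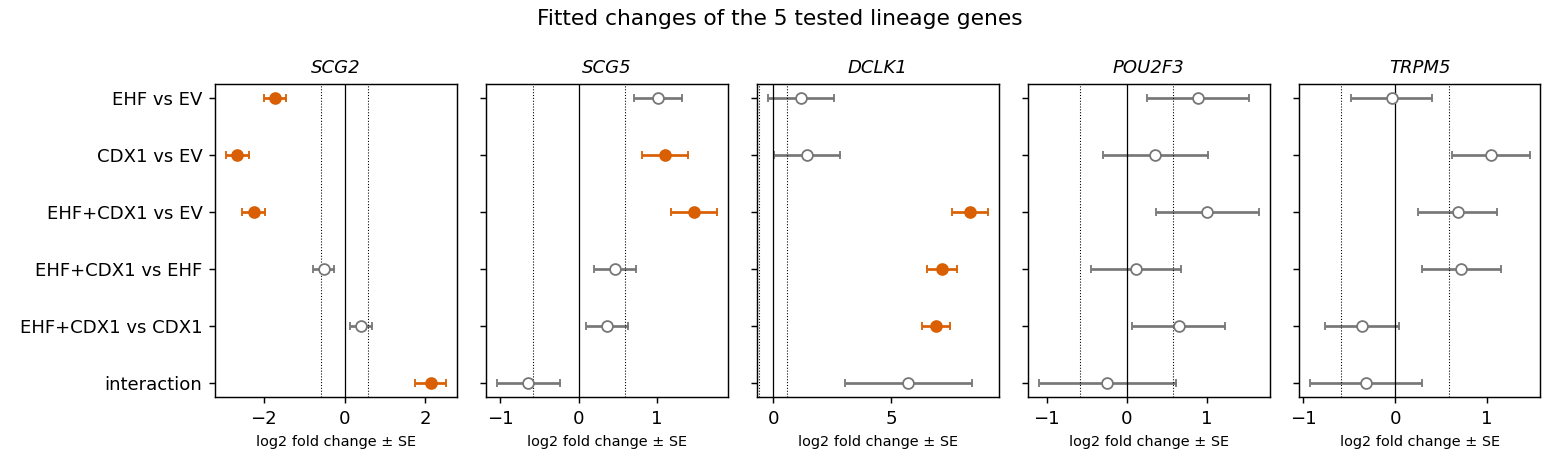
Fitted log2 fold changes ± SE of the 5 tested genes in 6 comparisons, each gene with its own axis. Filled orange points passed the test against a 1.5-fold change (dotted lines) at an adjusted p of 0.05. SCG2 is called lower in the 3 comparisons with EV cells, DCLK1 higher wherever EHF+CDX1 cells are compared with another line, and POU2F3 and TRPM5 are called in none.

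Among the 5 tested genes, 2 rose and 1 fell in EHF+CDX1 against EV cells, where 10.4% of all tested genes were called. In EHF against EV cells 1 fell (8.33% called), and in CDX1 against EV cells 1 rose and 1 fell (44.6% called). In EHF+CDX1 cells 1 rose against EHF cells (2.68% called, 0.189% lower) and 1 against CDX1 cells (41% called, 18.7% lower), DCLK1 in both. In the interaction 1 was called, SCG2 (38.2% called, 20.2% higher and 18% lower). The counts in comparisons that involve CDX1 cells are near these shares and are not a result about the 10 genes. DCLK1 is among the 5 only because the EHF+CDX1 libraries carried it over the filter. The counts of rises in EHF+CDX1 cells, which include it, are therefore not such a result either. The median log2 fold change of the 5 genes was 1.01, 0.89 and 1.04 in EHF+CDX1, EHF and CDX1 over EV cells, beside -0.027, -0.04 and -0.028 for all tested genes. The first and second of these medians are the values of POU2F3, and the third is that of TRPM5. None of these was called in edgeR's test against a 1.5-fold change. The sign of the first turned with other tools.

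REST was measured beside the granins. It stood at 49.7 ± 3.01 CPM in EV, 53 ± 1.76 in EHF, 121 ± 17.6 in CDX1 and 45.4 ± 1.31 in EHF+CDX1 cells (SD, n = 3). REST rose in CDX1 cells (log2 fold change 1.28 ± 0.11, adjusted p = 1.72e-05) and not in EHF (0.094 ± 0.1, adjusted p = 1) or EHF+CDX1 cells (-0.13 ± 0.1, adjusted p = 1), with an interaction of -1.51 ± 0.15 (adjusted p = 6.41e-05). SCG2 and CHGB were low in EHF and EHF+CDX1 cells too, where REST was at its EV level, and the part of REST in any granin value was not tested. Of the 16 repressors and corepressors listed with it, all tested, 1 rose in EHF+CDX1 cells (ZEB1, 1.91 ± 0.26, adjusted p = 0.00105), 1 rose and 1 fell in EHF cells, and 5 rose and 2 fell in CDX1 cells, with median log2 fold changes of -0.093, -0.14 and 0.23. Leaving out EV replicate 3, 2 rose and 1 fell in EHF+CDX1, 2 rose and 1 fell in EHF and 5 rose and 5 fell in CDX1 cells. ZEB1 rose in CDX1 cells as well (3.56 ± 0.26, adjusted p = 5.83e-07). In EHF cells it was called only without EV replicate 3 (1.56, adjusted p = 0.0066, against 1.21 ± 0.26 and 0.0538 with it). With all libraries, 7.3% of all tested genes rose and 3.13% fell in EHF+CDX1 cells. The shares were 5.68% and 2.65% in EHF cells and 21.3% and 23.3% in CDX1 cells.

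Other genes of the same pathways were taken from lists. Of 18 further enteroendocrine transcription factors 11 were tested, of which 4 rose and 0 fell in EHF+CDX1 cells against EV cells (7.3% of all genes rose and 3.13% fell). With limma voom 2 rose and 0 fell. PROX1, a homeobox transcription factor, had 0, 0 and 2 reads in EV, none in EHF, 1, 0 and 0 in CDX1 and 110, 76 and 8 in EHF+CDX1 cells (5.93 ± 0.8, adjusted p = 0.000791). It reached 0.5 CPM in EHF+CDX1 libraries alone, so like DCLK1 it passed the filter, and counts among the 4, through the line in which it is high, and its fitted fold depends on the prior count. ETV1, an ETS factor, rose from 0.633 to 6.49 CPM in EHF+CDX1 cells (3.38 ± 0.3, adjusted p = 1.5e-05), and the LIM homeobox factor ISL1 from 0.664 to 1.93 CPM (1.55 ± 0.32, adjusted p = 0.0198), a call lost with limma voom (adjusted p = 0.442). Both of these also rose in EHF cells, the 2 called there (5.68% of all genes rose), though ISL1 not without EV replicate 3 (adjusted p = 0.0826), and both were among the 3 that rose in CDX1 cells, where 3 others fell (21.3% rose and 23.3% fell). The median log2 fold change of the 11 was 0.4, 0.4 and -0.24 in EHF+CDX1, EHF and CDX1 cells. Without EV replicate 3, 3 rose and 4 fell in CDX1 cells.

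Of 17 hormone and amine enzyme genes 6 were tested, and 1 rose in EHF+CDX1 cells. This was DDC, the aromatic L-amino acid decarboxylase of serotonin synthesis, with 1, 3 and 0 reads in EV, 0, 3 and 6 in EHF, 1, 1 and 8 in CDX1 and 562, 440 and 145 in EHF+CDX1 cells (7.69 ± 0.69, adjusted p = 1.1e-05). DDC too reached 0.5 CPM in EHF+CDX1 libraries alone, which is how it came to be among the 6, and its fold depends on the prior count. The hormone genes that passed in the single-factor lines, which are named here after their values were seen, were others: CCK rose in EHF cells, from 0.0551 to 1.24 CPM (adjusted p = 0.00196), and PYY (0.171 to 2.73 CPM, adjusted p = 0.000175) and SCT (0.416 to 1.37 CPM, adjusted p = 0.00207) rose in CDX1 cells. CCK averaged below 0.5 CPM in each line but EHF, so it came to be among the 6 largely through the line in which it is high. TPH1, which makes the serotonin precursor upstream of DDC, fell in CDX1 cells, from 0.556 to 0.0643 CPM (adjusted p = 0.000728). The median log2 fold change of the 6 was 0.41, 0.3 and 0.93. When EV replicate 3 was left out, 3 rose in EHF+CDX1 (DDC, CCK and PYY), 2 in EHF (CCK and PYY) and 3 in CDX1 cells (CCK, PYY and SCT), and 0 fell, TPH1 then being below the filter. Of the 25 secretory granule and exocytosis genes 15 were tested, and in EHF+CDX1 cells 1 rose and 1 fell, with a median of 0.053. CADPS, which primes dense-core granules for release, had no read in EV or CDX1 cells, 0, 1 and 1 in EHF and 72, 65 and 18 in EHF+CDX1 cells, where it was called (adjusted p = 0.00013). It likewise passed the filter through EHF+CDX1 cells alone. PAM, the enzyme that amidates peptide hormones, fell by 1.23 ± 0.2 on the log2 scale (adjusted p = 0.0102), a call lost with limma voom (-1.07, adjusted p = 0.103) and on the deposited log2 RPKM (adjusted p = 0.102). In EHF cells 1 of the 15 rose, with a median of 0.37, and in CDX1 cells 4 rose and 5 fell, with a median of 0. Beside these counts and those of the hormone genes, 7.3% of all tested genes rose and 3.13% fell in EHF+CDX1 cells. The shares were 5.68% and 2.65% in EHF cells and 21.3% and 23.3% in CDX1 cells. Without EV replicate 3, 6 rose in EHF and 4 in EHF+CDX1 cells, and in CDX1 cells 5 rose and 5 fell.

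**Figure D3:**
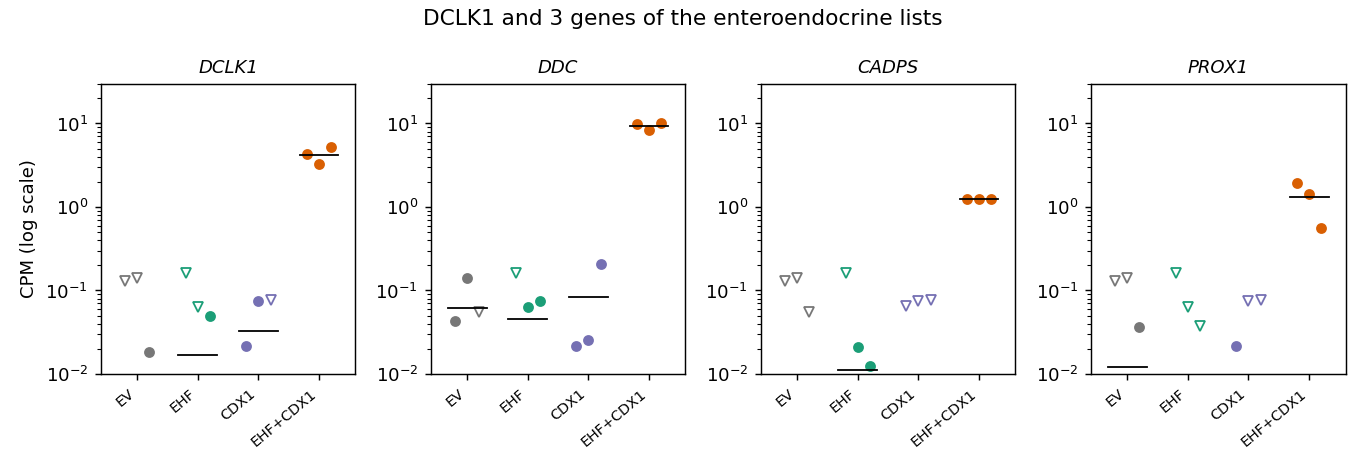
Level in CPM, on a log axis, of DCLK1, DDC, CADPS and PROX1 in the 12 libraries, drawn as in the plot of the 10 genes. The 4 genes have 0 to 8 reads in each library of the EV, EHF and CDX1 lines, and 8 to 562 reads in each EHF+CDX1 library.

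Of 13 receptors of enteroendocrine sensing 3 were tested. None was called in EHF or EHF+CDX1 cells, by edgeR or limma voom, with 1 lower in each at an unadjusted p of 0.05. In CDX1 cells 3 of 3 fell (median -1.81), where 23.3% of all tested genes fell. Without EV replicate 3 the number was 2, and with limma voom 1. Among them SSTR5, a somatostatin receptor, fell in CDX1 cells (-2.39 ± 0.22, adjusted p = 6e-06) and was -0.37 ± 0.2 in EHF+CDX1 cells (adjusted p = 1), with an interaction of 1.84 ± 0.29 (adjusted p = 0.00122).

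Tuft cell genes other than the 3 above numbered 33, of which 19 were tested. In EHF+CDX1 cells 1 rose and 2 fell, in EHF cells 2 rose and 1 fell, and in CDX1 cells 3 rose and 8 fell. The median log2 fold changes were -0.077, -0.14 and -0.48. Over all tested genes 7.3% rose and 3.13% fell in EHF+CDX1 cells, 5.68% and 2.65% in EHF cells and 21.3% and 23.3% in CDX1 cells. Without EV replicate 3, 3 rose and 1 fell in EHF+CDX1 cells, and 4 rose and 8 fell in CDX1 cells. ALOX5, which makes leukotrienes, fell in all 3 lines against EV cells, by 2.77 ± 0.31 in EHF+CDX1 cells (adjusted p = 0.000126), 3.12 ± 0.32 in EHF cells (adjusted p = 6.28e-05) and 4.5 ± 0.34 in CDX1 cells (adjusted p = 6.55e-07) on the log2 scale. GNG13, the gamma subunit of the taste G protein upstream of TRPM5, fell by 1.46 ± 0.34 in EHF+CDX1 cells (adjusted p = 0.0406), but was not called without EV replicate 3 (-0.95, adjusted p = 0.144). GNG13 also fell in CDX1 cells (-2.26 ± 0.35, adjusted p = 0.000423) and was not called in EHF cells (-0.8 ± 0.33, adjusted p = 0.575). SUCNR1, the succinate receptor of tuft cells, had 0, 0 and 2 reads in EV, 3, 3 and 10 in EHF, 62, 41 and 44 in CDX1 and 14, 9 and 1 in EHF+CDX1 cells. SUCNR1 rose in CDX1 (5.7 ± 0.62, adjusted p = 1.21e-05) and EHF+CDX1 cells (3.05 ± 0.76, adjusted p = 0.0294). It reached 0.5 CPM in CDX1 libraries alone, so it passed the filter through the line in which it is highest. It counts among the 3 that rose there for that reason, and its fitted folds depend on the prior count. The call in EHF+CDX1 cells was lost and its sign turned with limma voom and on the deposited log2 RPKM (-0.45 in both), whereas that in CDX1 cells was made by both (4.49 in each).

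**Figure D4:**
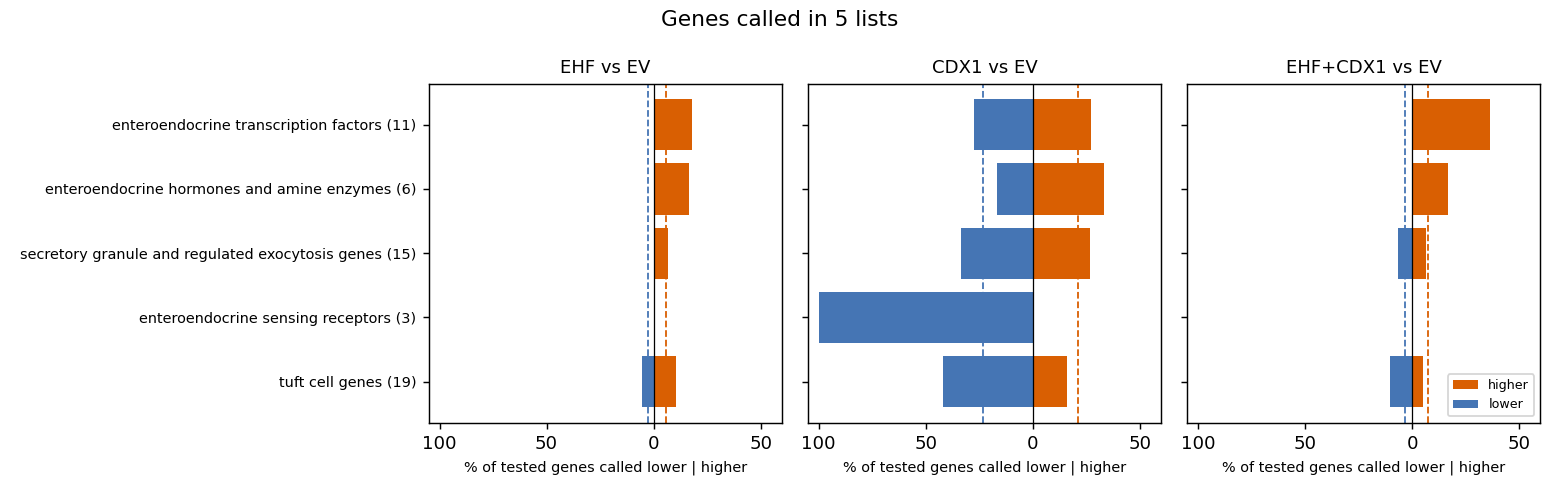
Share of the tested genes of 5 lists called higher (orange, to the right) or lower (blue, to the left) in EHF, CDX1 and EHF+CDX1 against EV cells, in percent, with the number tested in brackets. Dashed lines are the shares over all 15853 genes. Enteroendocrine transcription factors in EHF+CDX1 cells have 4 of 11 higher and 0 lower, or 2 higher with limma voom. PROX1, among the 4, passed the filter through EHF+CDX1 libraries alone. The 3 sensing receptors are all lower in CDX1 cells, or 2 of them without EV replicate 3.

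Close relatives of the 10 genes were read for comparison. Of 16 paralogues 8 were tested, of which 1 rose in EHF+CDX1, 2 in EHF and 3 in CDX1 cells and 0 fell, with medians of 0.46, 0.76 and 0.55. In each line 3 rose without EV replicate 3. With all libraries, 7.3% of all tested genes rose in EHF+CDX1, 5.68% in EHF and 21.3% in CDX1 cells. DCLK2, the nearest relative of DCLK1, rose in EHF+CDX1 cells (1.58 ± 0.24, adjusted p = 0.00281; 0.0827 on the deposited log2 RPKM) and EHF cells (2.16 ± 0.23, adjusted p = 0.000199) and not in CDX1 cells (-0.4 ± 0.25, adjusted p = 0.735). The granin VGF, at 30.3 CPM in EV cells, was not called in EHF+CDX1 (0.78 ± 0.34 on the log2 scale, adjusted p = 0.591) or EHF cells (1.3 ± 0.34, adjusted p = 0.0985). In CDX1 cells, with a value close to that of EHF cells, it was called (1.28 ± 0.34, adjusted p = 0.0269). When EV replicate 3 was omitted VGF was called in EHF+CDX1 (1.51, adjusted p = 3.84e-06) and EHF cells (2.03, adjusted p = 2.74e-08) too. With limma voom it was called in no line (adjusted p = 0.865 in EHF+CDX1, 0.157 in EHF and 0.147 in CDX1 cells). NEUROG1, a relative of NEUROG3, had no read either, and NEUROG2 rose in CDX1 cells (2.6 ± 0.61, adjusted p = 0.00623), a call not made by limma voom (adjusted p = 0.0883).

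Markers of other cell types were read too. Of all tested genes, 7.3% rose and 3.13% fell in EHF+CDX1, 5.68% and 2.65% in EHF and 21.3% and 23.3% in CDX1 cells. Of 21 neuronal genes not particular to enteroendocrine cells 11 were tested, with 1 rise and 1 fall in EHF+CDX1 cells, 2 rises and 1 fall in EHF cells and 3 rises and 3 falls in CDX1 cells, and medians of -0.16, 0.15 and 0.47. Without EV replicate 3, 2 rose and 2 fell in EHF+CDX1 and 4 rose and 1 fell in EHF cells. Their summed level was 444 to 517 CPM in EV, 407 to 428 in EHF, 341 to 401 in CDX1 and 324 to 337 in EHF+CDX1 cells. NCAM1, a neural adhesion molecule, fell by 4.56 ± 0.33 in EHF+CDX1 cells on the log2 scale (adjusted p = 2.06e-06). It fell in EHF (-3.28 ± 0.3, adjusted p = 2.56e-05) and CDX1 cells (-7.14 ± 0.41, adjusted p = 6.44e-08) as well. CRMP1, a collapsin response mediator of neurons, had 0, 0 and 2 reads in EV, 17, 45 and 53 in EHF, 2, 0 and 1 in CDX1 and 27, 24 and 11 in EHF+CDX1 cells. It rose in EHF (5.19 ± 0.66, adjusted p = 0.000313) and EHF+CDX1 cells (4.55 ± 0.7, adjusted p = 0.00108), folds that depend on the prior count. CRMP1 reached 0.5 CPM in EHF and EHF+CDX1 libraries alone, so it passed the filter, and counts among these rises, through the lines in which it is high. Among the 12 epithelial genes, the tight junction gene CLDN3 rose in EHF+CDX1 cells (1.29 ± 0.22, adjusted p = 0.0112) and fell in CDX1 cells (-0.94 ± 0.22, adjusted p = 0.0466; -0.53 and 0.609 without EV replicate 3), and the medians of the list were -0.074, -0.21 and -0.63. Of 16 fibroblast, endothelial and blood cell genes 5 were tested, and their summed level was 258 to 308 CPM in CDX1 and 42.2 to 93.3 CPM in the other lines. CD68 rose in EHF+CDX1 cells (2.05 ± 0.4, adjusted p = 0.0101), none of the 5 was called in EHF cells by edgeR or limma voom (2 were higher at an unadjusted p of 0.05, and 2 rose without EV replicate 3), and COL1A1, ACTA2 and CD68 rose in CDX1 cells, with medians of -0.0059, -0.19 and 1.21. The part of these differences in the values of the 10 genes was not tested.

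For each tested gene, the 3 others with the highest Pearson correlation over the 12 libraries were listed as a description, since libraries of a line share their cells. For DCLK1 they were MIR4458HG and EPB41L3 (r = 0.994 each) and AUTS2 (r = 0.991), all with no read in EV or EHF cells, at most 1 in a CDX1 library and means of 0.558, 0.517 and 15.6 CPM in EHF+CDX1 cells. For SCG2 they were PITPNM3, FAM149B1 and NECTIN3 (r = 0.975 each), of which NECTIN3 went from 192 CPM in EV to 66.1 in EHF, 36 in CDX1 and 51.8 in EHF+CDX1 cells. For SCG5 they were LTBP2 (r = 0.945), LOC101929705 (0.94) and SPRY1 (0.938), each lowest in EV cells. TRPM5 was most like CDRT1 (0.921), CHADL (0.901) and H4C15 (0.9), each highest in CDX1 cells. POU2F3 had the weakest matches, SERF1A and DAAM2 (0.823 each) and RARS2 (0.774).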

How the data were processed

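RNA-seq was performed on 12 HCT116 libraries. Per the labels and the study's methods, the authors aligned reads to GRCh38/hg38 with Subread 2.0.0 and counted uniquely mapped reads over RefSeq exons with featureCounts 2.0.0. The strand setting is not given in the sources used here. The authors deposited raw counts for 28395 genes, and log2 RPKM values made with limma voom and exon lengths.

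The count analysis used edgeR 4.0.16 under R 4.3.3. Genes with at least 0.5 CPM, on library totals without TMM factors, in at least 3 libraries were kept. This gave 15853 genes, the same as in the deposited log2 RPKM values. TMM factors were 0.799 to 0.845 in CDX1 and 0.973 to 1.09 in other libraries. All 12 libraries entered 1 quasi-likelihood fit, with line as the only factor. A call needed a Benjamini-Hochberg adjusted p of at most 0.05 from glmTreat with a 1.5-fold threshold. Printed adjusted p-values are of this test. Genes below the filter were tested in a second fit of the 24839 genes with at least 1 count. Intervals of pooled reads and ratios are exact, at 95%, and cover counting error only.

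Alternatives were RLE factors, limma 3.58.1 with voom and quantile normalization, DESeq2 1.42.0, no filter, a test against no change, the compared groups alone, a replicate block, the deposited log2 RPKM and leaving out each library. Those printed for genes of the lists were added after seeing the data. Every one of the 10 genes is described. From the 10 lists of 184 genes, the 3 most changed genes called in EHF+CDX1 against EV cells are named, with genes called in the interaction where these were at most 3, and others where the text says so. 1 gene that this rule names is not reported here. The 10 genes and the lists were chosen with earlier results of these data known.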

Additional observations from a re-analysis of the deposited data

Results flagged for a closer look

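The SCG2 difference between lines with and without the CDX1 retrovirus was not the same with and without the EHF plasmid, by a test of that difference. An effect of CDX1 here cannot be told apart from a difference between clones or selections. The CDX1 transcript was 10.3-fold higher in EHF+CDX1 than in CDX1 cells, and the EHF transcript 24.3-fold lower in CDX1 than in EV cells. The part of either in the interaction was not tested. The interaction was 2.13 ± 0.38 on the log2 scale (edgeR adjusted p = 0.00191), from a fall by 2.65 in CDX1 over EV cells against a change of -0.52 in EHF+CDX1 over EHF cells. All 3 CDX1 libraries were below all 3 EV libraries, and 38.2% of tested genes were called in the interaction.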

How the results depend on the processing

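Over 925 gene values under the alternatives, 0 called values reversed, 18 lost their call, 10 gained one and 897 kept direction and side, counting as kept the 29 uncalled values that changed sign. In EHF over EV cells 2 genes were called in all genes with a count (CHGB and SCG2) and 2 against no change (SCG2 and SCG5), compared with 1. In CDX1 over EV cells 1 was called with limma voom, DESeq2, the compared groups alone and the deposited log2 RPKM, compared with 2, since SCG5 was lost. In EHF+CDX1 over CDX1 cells 2 were called in all genes with a count (NEUROD1 and DCLK1), compared with 1. In the interaction 2 were called with limma voom, DESeq2 and the deposited log2 RPKM (SCG2 and DCLK1), compared with 1. The cause of these changes was not tested.

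Leaving out each library gave 1 to 3 calls in EHF+CDX1 over EV cells, 1 in EHF over EV, 1 to 3 in CDX1 over EV, 0 to 1 in EHF+CDX1 over EHF, 0 to 1 in EHF+CDX1 over CDX1 and 1 to 2 in the interaction. The counts of 0 arose without any 1 EHF+CDX1 library, since DCLK1 then reached 0.5 CPM in only 2 libraries and left the filter. In all genes with a count, chosen after seeing the data, DCLK1 was called without each library, with log2 fold changes of 8 to 10.37 over EV, 6.61 to 10.3 over EHF and 6.39 to 8.15 over CDX1 cells. Genes with more than 10 reads in every library were 1 in EV, 2 in EHF and 3 in CDX1 cells, and 3 in CDX1 cells with reads scaled to the smallest library.

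Same-numbered libraries did not deviate together (18 pairs, correlations -0.0653 to 0.0802, 0 over 0.1; 4 of 12 libraries correlated best with their own number), so they share only a number. With the replicate block 3, 1, 2, 1, 1 and 1 genes were called in the 6 comparisons in the order above, and no call of a tested gene changed.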
